A study of Arabidopsis thaliana with 12 samples.

Results

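NTRC, SRX, AT3G52960 and AT5G58330 are nuclear genes of Arabidopsis thaliana for enzymes that pass electrons through protein thiols in the chloroplast, or that are switched by them. Each of the 4 genes was taken from a probe that lists it and no other gene, out of 691 genes that are named in this way on an array of 3439 probes. No further probe lists any of the 4 genes, with or without others. The 4 probes had a value above 0 in each of the 12 samples, and the 4 were tested. Total RNA came from 6 samples of the psak mutant, which lacks the photosystem I subunit PSI-K, and from 6 wild-type samples (WT). Both genotypes were of ecotype Columbia 0. The labels give no tissue, age, light condition or mutant allele, and number the samples 1 to 6 in each genotype without saying whether they came from separate plants. P-values therefore measure the spread between these samples, which may be technical.

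In the light, photosystem I delivers electrons to ferredoxin, and from there they go to NADPH and to thioredoxins, small proteins that reduce disulfides in their targets. NTRC carries a thioredoxin reductase and a thioredoxin in a single polypeptide and draws on NADPH, so it also works in darkness. It is known as the reductant of some plastid peroxiredoxins, which remove peroxides. SRX is sulfiredoxin, which repairs some peroxiredoxins whose cysteine has been overoxidised. AT3G52960 encodes a plastid peroxiredoxin that acts on hydrogen peroxide and organic peroxides. These data do not show whether NTRC or SRX acts on it. AT5G58330 encodes NADP-malate dehydrogenase, which turns oxaloacetate into malate at the expense of NADPH. It is switched on by thioredoxin in the light, and the export of malate, called the malate valve, carries surplus reducing power out of the chloroplast.

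The values are deposited intensities on a scale from 0 to 100, and all 4 probes were low on it. Among all probes, their mean intensities stood at percentile 57.7 for NTRC, 51.2 for AT5G58330, 39.3 for SRX and 36.4 for AT3G52960. The 12 samples did not behave alike. Samples 5 and 6 of psak had 18.1% and 19.4% of their probes at 0, against 13% to 13.6% in psak samples 1 to 4 and 13.8% to 16.5% in WT. Their log2 medians over probes above 0 were also the lowest, at -2.15 and -2.20, against -1.39 to -1.25 in psak samples 1 to 4 and -1.66 to -1.28 in WT. Log2 values were therefore quantile normalized before testing, and each fold change below is also given without psak samples 5 and 6. In the test of the 12 samples, 14.8% of 2993 tested probes passed at a limma adjusted p under 0.05. Of the 4 genes 1 passed, NTRC.

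NTRC was lower in psak. Its deposited intensity was 0.364, 0.294, 0.309, 0.296, 0.151 and 0.206 in psak samples 1 to 6, against 0.349, 0.392, 0.469, 0.364, 0.505 and 0.528 in WT samples 1 to 6. Of the psak samples, 5 lay below every WT sample, and psak sample 1 lay among the lowest WT samples. The mean was 0.270 ± 0.0772 in psak and 0.434 ± 0.0763 in WT (SD, n = 6 each), a ratio of 0.622.

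After normalization all 6 psak samples lay below all 6 WT samples, which was so for 5.6% of the 2358 probes above 0 in every sample. The log2 fold change of NTRC was -0.64 ± 0.14 (SE; 95% interval -0.94 to -0.35; limma adjusted p = 0.00836). Among all tested probes, 6.72% passed in the same direction, and 15.1% had a lower log2 fold change than NTRC. The spread of the NTRC probe was small: its residual SD was 0.17 on the log2 scale, against a median of 0.49 over tested probes, and 3.54% of tested probes had a smaller one. An exact permutation test of the 12 samples gave p = 0.00216 for NTRC, the smallest that 924 splits can give. Its adjusted p was 0.0183 over 2358 probes, of which 431 passed this test, 214 of them as lower in psak. Both this test and the limma test above treat the 12 samples as independent.

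**Figure D1:**
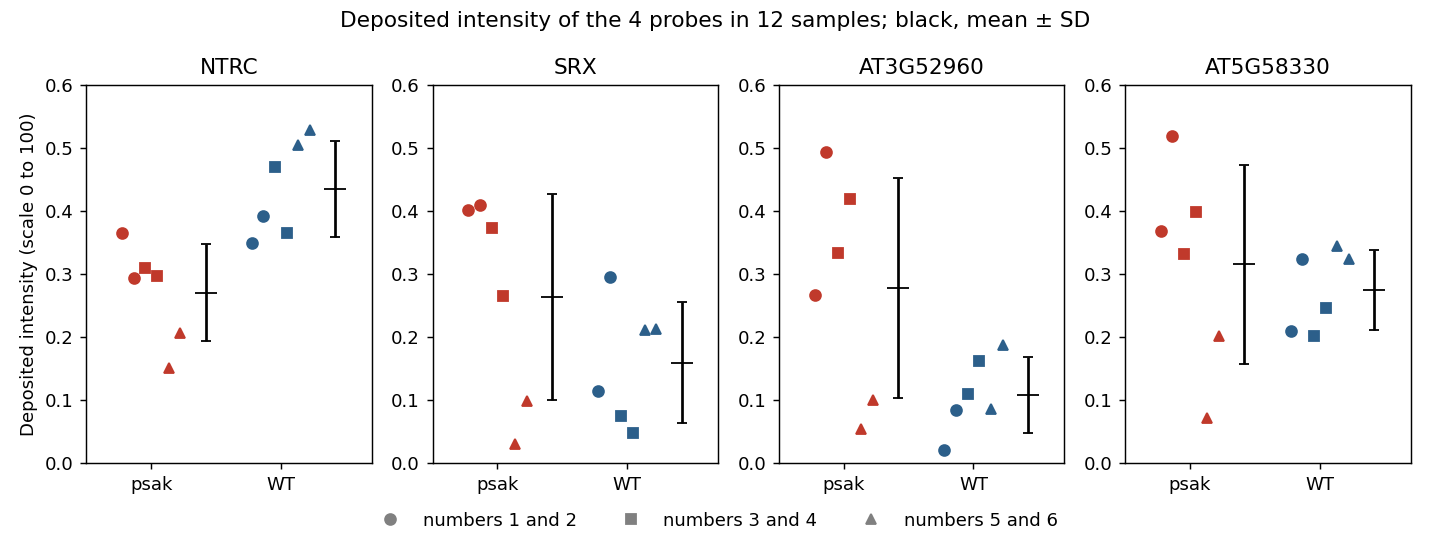
Deposited intensity (scale 0 to 100) of the probes for NTRC, SRX, AT3G52960 and AT5G58330 in 6 psak (red) and 6 WT (blue) samples, with marker shapes for sample numbers 1 and 2, 3 and 4, and 5 and 6, and the mean ± SD in black. For SRX, AT3G52960 and AT5G58330 the psak samples 5 and 6 (triangles) are the lowest of psak, at 0.201 or less, while psak samples 1 to 4 are at 0.265 or more.

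The NTRC call depended on how alike samples were treated, and the p-values above make no allowance for noise that they share. Samples with numbers 1 and 2, 3 and 4, and 5 and 6 within a genotype resembled each other (consensus correlation 0.590). With these number pairs as a random block, 5.15% of tested probes passed, 1.84% of all tested probes as lower in psak, and NTRC was not among them (limma adjusted p = 0.110). With the mean of each number pair as a replicate (n = 3 per genotype) it did not pass either (limma adjusted p = 0.235), and neither did any other probe on the array, although 465 of 2965 were at an unadjusted p under 0.05. Leaving out psak samples 5 and 6 gave -0.66 on the log2 scale (limma adjusted p = 0.00434), in a comparison in which 31.9% of probes passed and 14.3% passed as lower, and -0.66 with the random block as well (limma adjusted p = 0.0290). The random block on these 10 samples was chosen after the data were seen, and 17.5% of probes passed in it, 7.92% as lower.

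Within the number pairs, the normalized log2 difference of NTRC, psak minus WT, was -0.58 in numbers 1-2, -0.74 in 3-4 and -0.61 in 5-6, and in each pair both psak samples were below both WT samples. Of the 2758 probes measured in every number pair, 22.6% were lower in psak in all 3. The evenness of the 3 NTRC values came with the normalization. In the values as deposited, the same differences were -0.18, -0.45 and -1.55, all in the same direction but largest in the pair that holds the psak samples with most probes at 0. Over all samples the log2 fold change of the values as deposited was -0.72 and did not pass (limma adjusted p = 0.0548). As a rank within its own sample, which needs no scaling, the NTRC probe stood at the 43rd to 58th percentile of all probes in psak (mean 49.1 ± 5.45) and at the 60th to 69th in WT (64.0 ± 3.26, SD, n = 6 each).

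**Figure D2:**
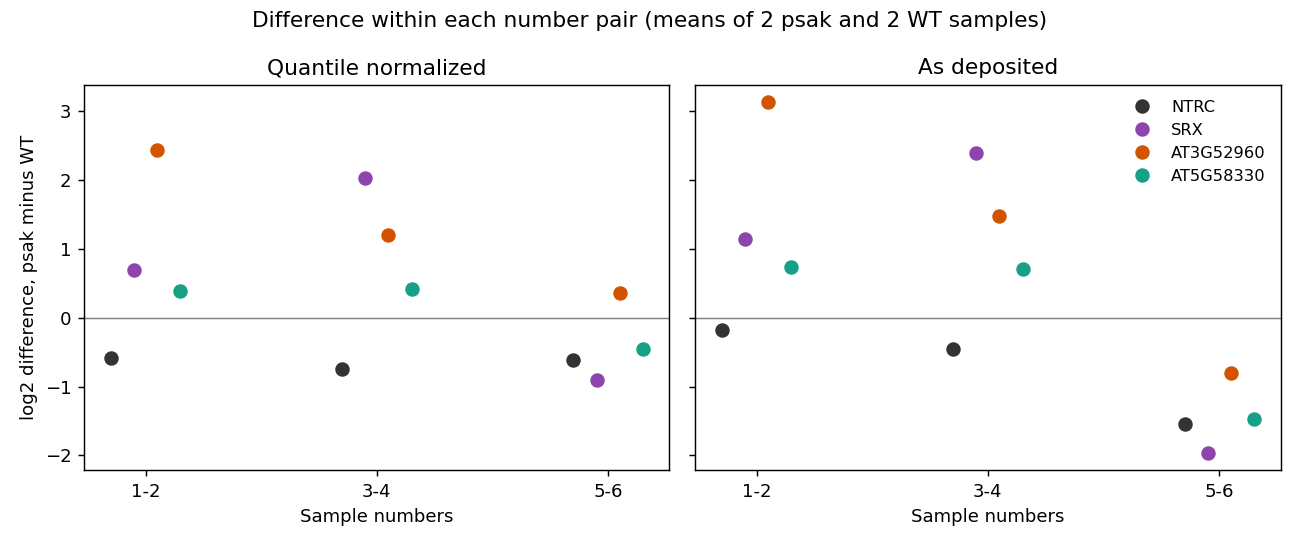
Log2 difference, psak minus WT, of the means of 2 psak and 2 WT samples within sample numbers 1-2, 3-4 and 5-6, after quantile normalization (left) and as deposited (right). NTRC is below 0 in all 6 positions, with -0.58, -0.74 and -0.61 after normalization and -0.18, -0.45 and -1.55 as deposited, and SRX is above 0 in numbers 1-2 and 3-4 and below 0 in numbers 5-6 on both sides.

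AT3G52960, the plastid peroxiredoxin, had the widest difference of the 4 genes and did not pass. Its deposited intensity was 0.266, 0.494, 0.333, 0.419, 0.0536 and 0.0993 in psak samples 1 to 6, against 0.0205, 0.0837, 0.110, 0.162, 0.0853 and 0.188 in WT samples 1 to 6. All of psak samples 1 to 4 were above every WT sample, while psak samples 5 and 6 lay within the WT range. On the normalized scale too, psak samples 1 to 4 were above all WT samples, as for 18.4% of the 2358 probes above 0 throughout. Psak sample 6 was there narrowly above them as well (-2.557 against -2.561 in WT sample 4, the highest). The mean was 0.277 ± 0.174 in psak and 0.108 ± 0.0600 in WT (SD, n = 6 each), a ratio of 2.56.

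The log2 fold change of AT3G52960 was 1.33 ± 0.48 (SE; 95% interval 0.28 to 2.38, not corrected for the number of probes; limma adjusted p = 0.0867), and 4.68% of tested probes had a higher one, while 8.12% passed as higher in psak. The exact permutation test gave p = 0.0260 and an adjusted p of 0.103 over 2358 probes, of which 749 had an unadjusted p under 0.05. Both this test and the 95% interval treat the 12 samples as independent. The normalized difference was 2.44 in numbers 1-2, 1.20 in 3-4 and 0.35 in 5-6, positive in all 3 as for 20.1% of the 2758 probes. In the values as deposited the numbers 5-6 gave -0.79, so the direction in that pair turned with the normalization. Leaving out psak sample 5 gave 1.57 on the log2 scale, which passed (limma adjusted p = 0.0366), as did 305 of 2983 probes as higher. Leaving out psak samples 5 and 6 gave 1.71 (limma adjusted p = 0.0239), but in that comparison 17.7% of all probes were called higher. With the random block on those 10 samples it did not pass (limma adjusted p = 0.118). On all 12 samples the random block gave 1.33 ± 0.76 (SE; limma adjusted p = 0.386). Number-pair means gave 1.33 as well (limma adjusted p = 0.283). The lowest WT value, 0.0205 in sample 1, also carried weight on the log scale: leaving it out gave 0.96 (limma adjusted p = 0.128).

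SRX, the sulfiredoxin, did not pass and changed direction between sample numbers. Its deposited intensity was 0.401, 0.409, 0.372, 0.265, 0.0303 and 0.0983 in psak samples 1 to 6, against 0.113, 0.295, 0.0748, 0.0477, 0.212 and 0.213 in WT samples 1 to 6. Psak samples 1 to 3 were above every WT sample and psak sample 5 was below every WT sample, so the groups overlapped at both ends. The mean was 0.263 ± 0.164 in psak and 0.159 ± 0.0957 in WT (SD, n = 6 each).

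The log2 fold change of SRX was 0.61 ± 0.52 (SE; 95% interval -0.53 to 1.75; limma adjusted p = 0.465). In numbers 1-2 and 3-4 both psak samples were above both WT samples, with normalized differences of 0.70 and 2.03. Psak sample 2 (-1.59) was only narrowly above WT sample 2 (-1.64). In numbers 5-6 both psak samples were below, with a difference of -0.90. Psak samples 5 and 6 stood at -4.26 and -2.57 there, and both WT samples at -2.51. By rank within its own sample, psak sample 6 (percentile 39.7) lay above WT samples 5 and 6 (36.5 each). Psak sample 2 (56.06) lay below WT sample 2 (56.12). The difference between number pairs was not tested. This order of signs was held by 20.4% of the 2758 probes, and by 25.7% of the 724 that share the intensity class of SRX when tested probes are cut into 4 equal classes. Leaving out psak samples 5 and 6 gave 1.14 on the log2 scale (limma adjusted p = 0.0712). The WT samples themselves spread 6.18-fold from lowest to highest and the psak samples 13.5-fold, and 84.1% of tested probes had a smaller residual SD than SRX.

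AT5G58330, the NADP-malate dehydrogenase of the malate valve, showed no difference that the test could detect. Its deposited intensity was 0.367, 0.520, 0.332, 0.399, 0.0721 and 0.201 in psak samples 1 to 6, against 0.210, 0.323, 0.202, 0.245, 0.345 and 0.323 in WT samples 1 to 6. As deposited, psak samples 1, 2 and 4 were above every WT sample, psak sample 3 lay within the WT range, and psak samples 5 and 6 were below every WT sample. After normalization only psak sample 2 was above every WT sample and only psak sample 5 below. The mean was 0.315 ± 0.157 in psak and 0.275 ± 0.0631 in WT (SD, n = 6 each).

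The log2 fold change of AT5G58330 was 0.12 ± 0.26 (SE; 95% interval -0.45 to 0.70; limma adjusted p = 0.790), which leaves room for changes of either sign within that interval. Its normalized differences were 0.38 in numbers 1-2, 0.43 in 3-4 and -0.45 in 5-6, the same order of signs as for SRX. In numbers 5-6 psak sample 5 (-2.98) was below both WT samples (-1.82 and -1.91), and psak sample 6 (-1.66) was above both. Leaving out psak samples 5 and 6 gave 0.35 on the log2 scale (limma adjusted p = 0.143). The WT samples were close together, within 1.71-fold, whereas the psak samples ran over 7.21-fold.

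The ratio of each probe to NTRC in the same sample is free of any single scaling factor per sample, though not of other scalings, and shows only whether the pair of probes moved unequally. NTRC itself was lower in psak, so a probe with no change would also have a higher ratio there. The log2 ratio of AT3G52960 to NTRC was -0.27 ± 0.89 in psak and -2.27 ± 1.02 in WT (SD, n = 6 each), a difference of 2.0, and 5 of 6 psak samples were above every WT sample. Of 2357 other probes above 0 throughout, 31.4% had at least as many psak samples above every WT sample in their ratio to NTRC. Within numbers 1-2, 3-4 and 5-6 this difference was 3.31, 1.93 and 0.75, positive in every pair. After quantile normalization it was 3.02, 1.94 and 0.96, and with an offset of 0.25 before log2, which compresses dim probes, the difference over all samples was 0.84. For AT5G58330 over NTRC the log2 ratio was 0.04 ± 0.63 in psak and -0.68 ± 0.31 in WT, with differences of 0.92, 1.16 and 0.08 in the number pairs. Of its psak samples 5 of 6 were above every WT sample, and 31.4% of the other probes had at least as many. On the deposited scale AT5G58330 alone differed by -0.01 and NTRC by -0.72 over all samples. For SRX over NTRC it was -0.44 ± 1.07 in psak and -1.70 ± 0.94 in WT, with 4 of 6 psak samples above every WT sample, as many as or fewer than in 48.5% of the other probes. The SRX difference was 1.32 in numbers 1-2, 2.85 in 3-4 and -0.41 in 5-6. Without psak samples 5 and 6, the differences in log2 ratio were 2.50 for AT3G52960, 1.02 for AT5G58330 and 1.88 for SRX. The genes were chosen with their values known, so these ratios are given with no test.

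**Figure D3:**
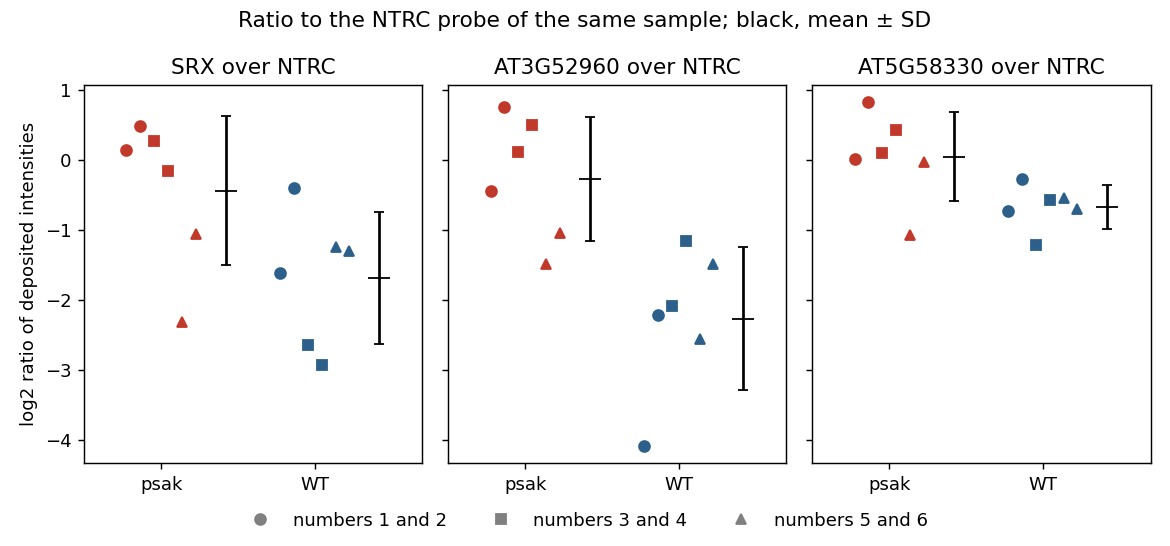
Log2 ratio of the deposited intensity of SRX, AT3G52960 and AT5G58330 to that of NTRC in the same sample, for 6 psak (red) and 6 WT (blue) samples, with marker shapes for the number pairs and the mean ± SD in black. For AT3G52960 and AT5G58330, 5 of 6 psak samples lie above every WT sample, and the exception is psak sample 5 (lower triangle). Of 2357 other probes, 31.4% had at least as many psak samples above.

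Few other genes of these pathways could be followed. Of 79 genes in 5 lists (thioredoxins, their electron donors, peroxide removal, malate metabolism, and thiol-regulated targets), 4 had a probe of their own, 3 were tested and 0 passed in the limma test, against 14.8% of all tested probes. In limma 1 of the 3, CHLM, was at an unadjusted p under 0.05, against 29.2% of all tested probes. No gene of the thioredoxin, peroxide removal or malate lists had such a probe. AT2G04700 encodes the catalytic subunit of ferredoxin-thioredoxin reductase, which feeds electrons from photosystem I to the thioredoxins. Its intensity was 0.241 ± 0.0845 in psak and 0.130 ± 0.0729 in WT (SD, n = 6 each), a difference of 0.92 ± 0.46 on the log2 scale (SE; limma adjusted p = 0.20) with number-pair values of -0.70, 0.92 and 2.54. CHLM, a methyltransferase of chlorophyll synthesis that thiol reductants keep active, differed by 0.63 ± 0.20 on the log2 scale without passing (limma adjusted p = 0.0576, and 0.346 with the random block). The probe listed for PRK, the thioredoxin-regulated phosphoribulokinase of the Calvin cycle, stood at -0.04 ± 0.28 on that scale (limma adjusted p = 0.939). SBPASE, another Calvin cycle enzyme switched by thioredoxin, was listed at 0 in all 12 samples. Leaving out psak samples 5 and 6 gave 0.41 for AT2G04700, -0.14 for PRK and 0.71 for CHLM, of which CHLM passed (limma adjusted p = 0.0316), as 31.9% of all probes did. The median log2 fold change of the 3 tested genes was 0.63, against 0.00 over all tested probes.

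**Figure D4:**
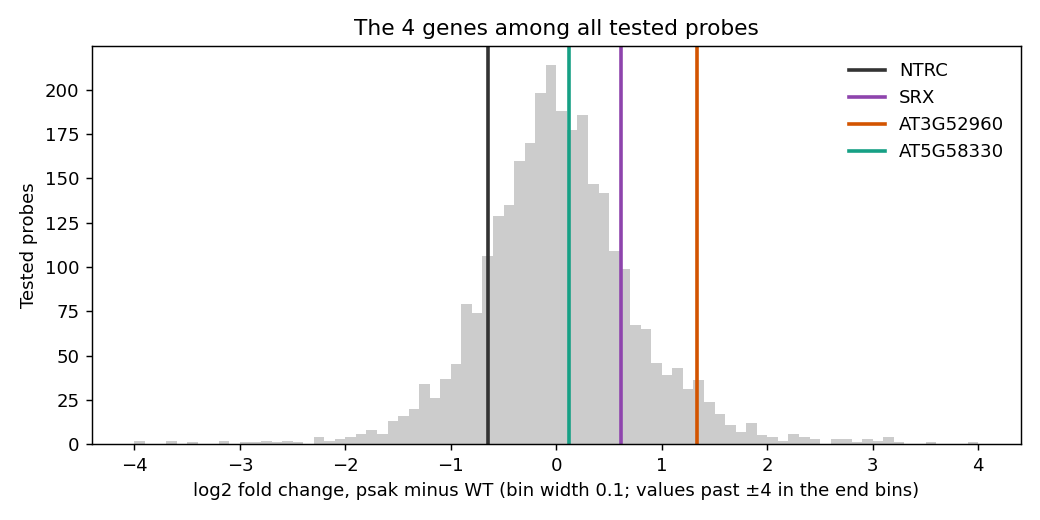
Number of tested probes by log2 fold change, psak minus WT (bars, bin width 0.1), with vertical lines for NTRC, AT5G58330, SRX and AT3G52960 at -0.64, 0.12, 0.61 and 1.33. Among 2993 probes, 15.1% lie below NTRC and 4.68% above AT3G52960.

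The single-gene probes whose normalized log2 values were most like those of each gene were sought among 475 others above 0 in all 12 samples. Samples of a number pair are alike, so these correlations are given as a description. NTRC was most like AT3G50350 (Pearson's r = 0.90, Spearman's rho = 0.85), AT1G76050 (0.90 and 0.85) and AT1G51350 (0.89 and 0.82). Once the mean of each genotype was subtracted, these r values were 0.65, 0.65 and 0.25. AT3G52960 was most like PIFI (r = 0.86, rho = 0.73), AT1G07460 (0.84 and 0.84) and AT3G59300 (0.82 and 0.78). SRX was most like AT4G16410 (r = 0.80, rho = 0.85), AT5G13410 (0.79 and 0.81) and AT5G58330 (0.78 and 0.76). AT5G58330 was most like AT3G23940 (r = 0.88, rho = 0.66), AT3G13150 (0.81 and 0.50) and SRX. With the genotype means subtracted, r for the genes most like AT3G52960, SRX and AT5G58330 ran from 0.70 to 0.88. For AT3G23940 and AT3G13150 the likeness to AT5G58330 varied with the samples left out. Without psak samples 5 and 6, r was 0.76 and 0.65. Without the 2 samples farthest from the median of AT5G58330, which narrows its range, r was 0.41 and 0.33. Left out likewise, r of AT3G52960 fell to 0.61 with PIFI, 0.69 with AT1G07460 and 0.72 with AT3G59300, and that of SRX to 0.59 with AT5G13410, whereas it was 0.86 with AT4G16410. For NTRC it stayed at 0.86 or more with all 3. For SRX and AT5G58330, each among the 3 most like the other, r was 0.75 without the 2 samples farthest from the median of SRX and 0.69 without those farthest from that of AT5G58330.

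**Figure D5:**
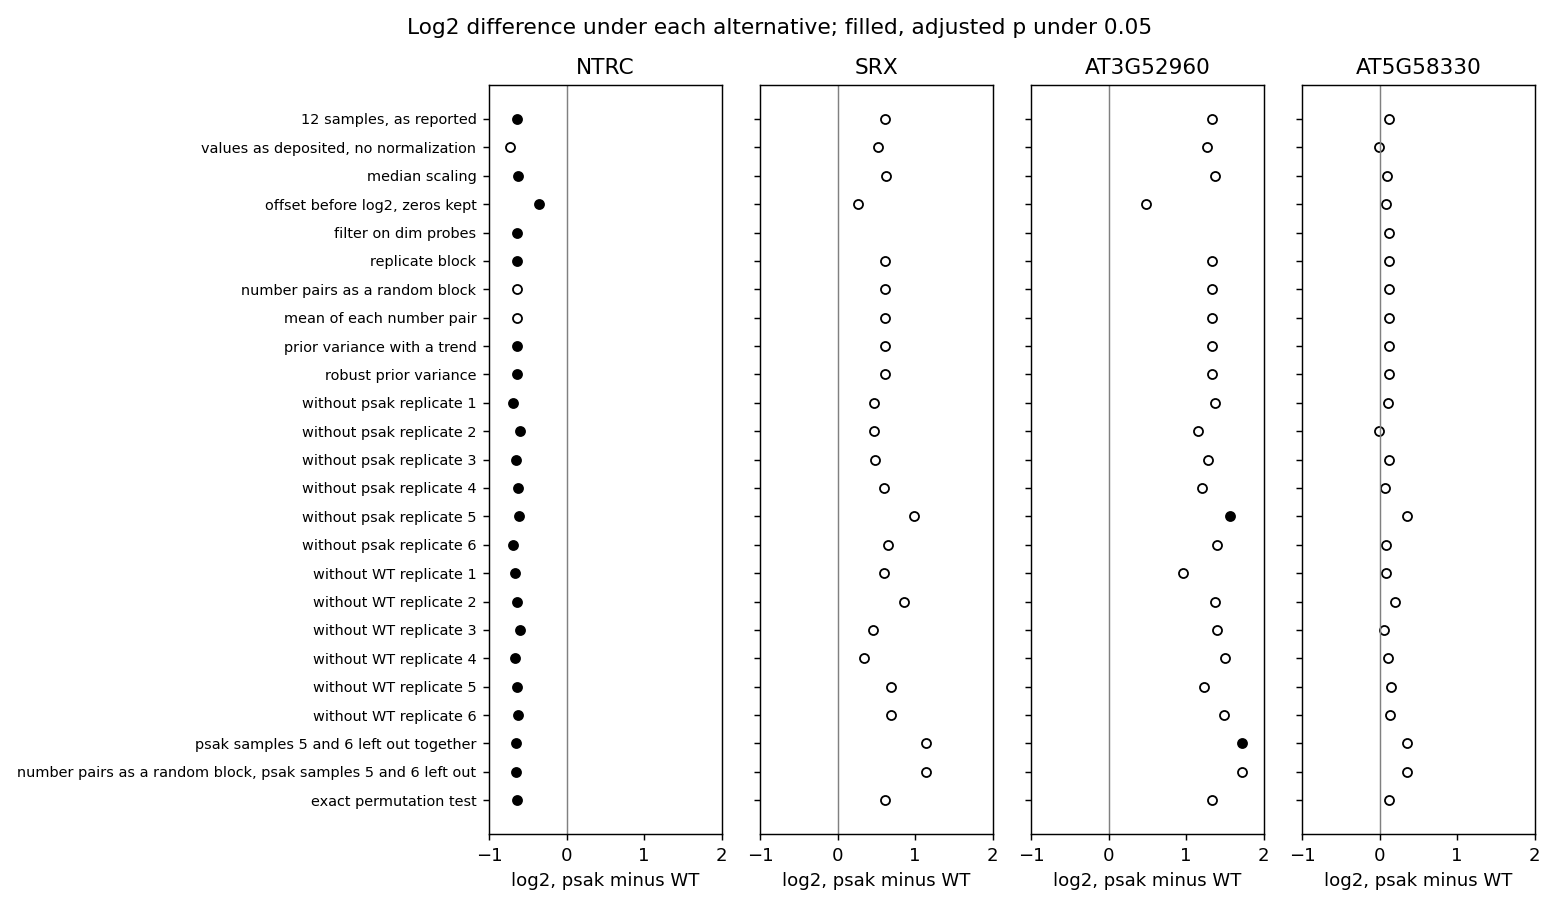
Log2 difference, psak minus WT, of each gene in the test of 12 samples and under each alternative, with filled points where the adjusted p was under 0.05. NTRC lies between -0.72 and -0.36 throughout, while AT3G52960 runs from 0.48 to 1.71 and AT5G58330 lies just under 0 in 2 of them.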

How the data were processed

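The authors deposited 1 intensity per probe and sample for 12 samples, on a linear scale from 0 to 100. Scanning, background correction and scaling are not given in the sources used here. Gene names come from the platform's probe annotation, matched by gene ID to the RefSeq annotation of TAIR10.1: 692 probes list 1 gene, of which 690 matched a locus, 870 list several and 1877 are unnamed here. No probe sequence was used to check a name. Intensities of 0 were taken as missing, and the rest as log2, quantile normalized. The 2993 probes that kept 2 or more values per genotype entered limma 3.58.1 (R 4.3.3, lmFit and eBayes, two-sided, Benjamini-Hochberg over these probes), after a test on simulated data. The simulation first drew its noise from raw sample SDs and gave more false calls than its preset bound. It was then changed to draw the spread from limma's fitted prior. Noise shared within number pairs gave many false calls in the limma test of 12 samples, and few with number pairs as a random block. The number of samples limits the precision. Exact permutation tests were two-sided, with SciPy 1.17.1. Alternatives were other scalings, an offset of 0.25 before log2, a filter at a mean intensity of 0.25, sample numbers as blocks or means, other prior variances, and samples left out. Named genes were the 4 genes, the tested genes of 5 pathway lists and the 3 most alike probes of each gene. Genes and lists were chosen with earlier results of these data known. PSAK, the mutated gene, had no probe of its own, which leaves the genotype labels unchecked. The labels do not say that a number marks a shared batch, so numbers were not taken as pairs in the main test. Same-numbered psak and WT samples deviated together weakly (correlations 0.0798 to 0.239), yet 11 of 12 samples correlated best with their own number in the other genotype. No 2 samples held identical values.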

Additional observations from a re-analysis of the deposited data

Results flagged for a closer look

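In 14 groups of 6 values (the 4 genes in each genotype, and 3 sample measures), 2 had a sample far from the others, both at psak sample 5. The gap to the nearest sample, divided by the whole range, was 0.627 for SRX and 0.634 for AT5G58330 in psak, against a critical value of 0.625 (Dixon). Chance flags about 1 in 20 groups of independent values, and samples of a number pair are not independent. Psak sample 5 had 18.1% of its probes at 0. The part of this in both values was not tested.

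SRX was flagged because its difference between psak and WT took opposite signs in different number pairs. This order of signs was common: 20.4% of the 2758 probes held it, as did 25.7% of the 724 in the intensity class of SRX. AT5G58330 held it too. The log2 difference, psak minus WT, was 0.698 in numbers 1-2 and 2.03 in numbers 3-4, with both psak samples above both WT samples. In numbers 5-6 the difference was -0.902. There psak sample 5 was far below both WT samples, and psak sample 6 just below (-2.57 against -2.51 in both). By rank within its own sample, psak sample 6 (percentile 39.7) lay above both (36.5 each), and psak sample 2 lay below WT sample 2. The number pairs are not groups of the study, and the difference between them was not tested.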

How the results depend on the processing

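NTRC kept its direction in all 24 alternatives and passed in 21. Several of them change only the test and keep the estimate of -0.64, so their direction was fixed. The 12 with 1 sample left out share most samples, so the count is no measure of independent support. Of the alternatives that allow for noise shared within number pairs, only the random block without psak samples 5 and 6 passed (limma adjusted p = 0.0290). NTRC did not pass with the values as deposited (-0.72, limma adjusted p = 0.0548). With all 12 samples it also failed with number pairs as the random block (-0.64, limma adjusted p = 0.110) and with number-pair means (-0.64, limma adjusted p = 0.235). The block of shared replicate numbers gave -0.64 (limma adjusted p = 0.0291) and changed no call of the 4 genes. It called 212 probes higher and 220 lower, and 11 of 12 samples correlated best with their own number in the other genotype, a hint from the data and not from the labels. With each sample left out, NTRC ran from -0.69 to -0.60 (limma adjusted p = 0.00602 to 0.0220), AT3G52960 from 0.96 to 1.57, SRX from 0.35 to 0.99 and AT5G58330 from -0.01 to 0.35. AT3G52960 passed in 2 of 23 alternatives, without psak sample 5 (1.57) and without psak samples 5 and 6 (1.71). In these, 305 of 2983 and 524 of 2966 probes passed as higher, against 243 of 2993 in the test of 12 samples. SRX passed in none of 23 (limma adjusted p = 0.0712 to 0.705), and AT5G58330 in none of 24. AT5G58330 stood at -0.00631 with the values as deposited and at -0.00752 without psak sample 2, where its sign turned. SRX and AT3G52960 have no value with the filter on dim probes, which removed them. With the offset, which compresses dim probes, NTRC was -0.36 and AT3G52960 0.48.

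Of all tested probes, 243 passed as higher and 201 as lower in psak. The counts were 146 and 275 with the values as deposited, 141 and 125 with median scaling, 99 and 55 with the random block, 0 and 0 with number-pair means, and 524 and 423 without psak samples 5 and 6. The random block without psak samples 5 and 6 was added after the data were seen, and gave 285 higher and 235 lower. The causes were not tested. The exact permutation test, counted among the alternatives, treats alike samples as independent. Spread limits SRX and AT3G52960 most: their residual SDs were 0.98 and 0.91 on the log2 scale, against 0.17 for NTRC and 0.47 for AT5G58330. In the intensity class that SRX, AT3G52960 and AT5G58330 share, 86.1%, 82.6% and 36.4% of tested probes had a smaller SD. What part dimness had in these spreads was not tested.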
